A study of Homo sapiens with 9 samples.

Results

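ADARB1, also called ADAR2, is an enzyme that converts adenosine to inosine in double-stranded RNA, and 9 genes with known roles in its stability, nuclear import, editing activity or the fate of the RNA it edits are described here. The genes are WWP2, KPNA1, KPNA3, SRSF9, DDX15, AIMP2, FMR1, DHX9 and SND1. They were taken by name for these roles, with earlier results of these data known, and each of the 9 was found among the 54562 Ensembl genes of the deposited table. DDX15 is annotated under its current symbol DHX15 and keeps its older name below. RNA was taken from HEK293, a human embryonic kidney cell line, 48 hours after a transient lipid transfection with an empty vector control (EV), with a CMV-promoter plasmid for the ADARB1 isoform that skips an *Alu*-derived exon (Short) or with the same plasmid carrying that exon (Long). Each group has 3 libraries. Transfections were repeated in 3 cell passages, and the replicate number is taken as the passage, which the labels do not state. The FPKM of a library summed to between 517170 and 589535, and any pair of libraries correlated at 0.969 or more over the genes tested. All groups received plasmid DNA and the transfection reagent and keep their own ADARB1 gene. The share of cells that took up a plasmid is not given, so each library averages transfected and untransfected cells, and in such bulk RNA fewer cells with a transcript and less of it per cell cannot be told apart.

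The abundance of ADAR2 protein depends on ubiquitin-dependent turnover as well as on its transcription, and the enzyme edits in the nucleus, which it enters through importins. Proteins that bind the same double-stranded RNA, unwind it or touch the enzyme can raise or lower editing at single sites without changing the amount of enzyme. RNA that carries many inosines can be kept in the nucleus or be bound and cut by nucleases. Measured here is only the mRNA of these factors, since neither their proteins nor editing itself was analysed.

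In this cell line the members cover a wide range of levels. The values are FPKM, the fragments of a gene scaled to its length and to the mapped fragments of its library, which permits a comparison between genes. In the EV libraries the order was SRSF9 at 171 ± 6.80 FPKM, DHX9 at 119 ± 24.8 FPKM, DDX15 at 97.8 ± 16.4 FPKM, SND1 at 93.9 ± 14.1 FPKM, KPNA1 at 59.1 ± 6.75 FPKM, FMR1 at 41.5 ± 2.78 FPKM, AIMP2 at 35.1 ± 4.28 FPKM, KPNA3 at 17.4 ± 3.17 FPKM and WWP2 at 9.12 ± 0.486 FPKM (mean ± SD, n = 3 each). The EV ranges of DHX9, DDX15 and SND1 overlapped, as did those of FMR1 and AIMP2. Within a library, however, DHX9 was above DDX15 in all 9 libraries, and FMR1 was above AIMP2 in the 3 EV libraries and in 4 of the 9. DDX15 was above SND1 in 2 of the 3 EV libraries and in 4 of the 9, so these levels were not separated. Among the 13801 genes whose FPKM averaged 1 or more over the libraries, 97.2% had a lower EV mean than SRSF9 and 42.6% had a lower one than WWP2. The endogenous ADARB1 transcript was lower than every member in each EV library, at 7.66, 8.0 and 8.61 FPKM in replicates 1, 2 and 3. With either plasmid ADARB1 exceeded every member, at 1889, 4145 and 2735 FPKM in Short and 1695, 3449 and 2080 FPKM in Long. The ratio of ADARB1 to WWP2 was thus 0.796 to 0.948 in EV, 184 to 393 in Short and 159 to 340 in Long.

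The cells carried the transcripts known for this line. NEFM, a neurofilament gene, was at 58.2 ± 11.4 FPKM in EV and VIM at 143 ± 9.34 FPKM, while the renal progenitor genes EYA1 and PAX2 were at 2.63 ± 0.273 and 2.28 ± 0.571 FPKM (SD, n = 3 each). The 11 measured markers of leukocytes, endothelium, liver, keratinocytes and red cells summed to 0.780 to 1.65 FPKM in a library, of which CD14 was the most abundant at 0.383 FPKM in EV, and KRT5 and HBB were listed at 0 in each library.

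The 100 bases before an annotated transcription start are shown for WWP2 and SRSF9, whose 6 plasmid libraries were all above EV, and for FMR1, the 1 member with a call. They are RefSeq sequences, written 5′ to 3′ on the strand of the gene, and each matched GRCh37 without mismatch, at chr16:69796135-69796234 (plus strand), chr12:120907552-120907651 (minus strand) and chrX:146993337-146993436 (plus strand). Capitals mark the E-box CACGTG, a palindrome read by basic helix-loop-helix factors. The motifs were chosen after the promoters had been seen.
WWP2: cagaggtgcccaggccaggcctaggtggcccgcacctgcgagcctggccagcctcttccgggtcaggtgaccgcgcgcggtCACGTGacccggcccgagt
SRSF9: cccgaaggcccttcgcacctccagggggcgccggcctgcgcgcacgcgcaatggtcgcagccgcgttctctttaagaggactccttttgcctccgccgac
FMR1: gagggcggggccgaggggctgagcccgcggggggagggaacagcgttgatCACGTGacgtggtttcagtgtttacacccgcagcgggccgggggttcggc

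The E-box begins 19 bases before the start in WWP2 and 50 in FMR1, and the letters are not in the window of SRSF9. RefSeq gives 12 starts for the 9 members. In the 250 bases before a start, searched on both strands, the E-box was found for 4 members (WWP2, FMR1, KPNA3 and an inner start of AIMP2) and in 6.34% of all 35116 windows. The GC box GGGCGG was found in 8 of the 12 windows and in 42.6% of all, CCAAT in 5 and 32.0%, and the TATA box TATAAA in 0 and 10.7%. A match describes the letters only.

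For the comparisons, limma was fitted to log2(FPKM + 1) of the 13801 genes with the passage as a block, and the adjustment of p-values covers them all. With the added 1, differences of weakly expressed genes come out too small. By exact two-sided permutation test 3 libraries against 3 cannot give a p below 0.1, and 3 pairs cannot give one below 0.25. The separate cultures are the 3 passages. With the passage as a block, the limma p-values rest on how far the group differences vary from passage to passage. Differences in level between passages do not enter them.

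WWP2 is a HECT-type ubiquitin ligase that marks ADAR2 for degradation. The gene is on chromosome 16 of GRCh37, plus strand, from 69796231 to 69975644 (ENSG00000198373). Its level was 9.62, 8.65 and 9.08 FPKM in EV replicates 1, 2 and 3, then 10.3, 10.5 and 10.4 with the Short plasmid and 10.7, 10.1 and 10.2 with the Long plasmid. The groups did not overlap: each library with an ADARB1 plasmid was above each EV library. The log2 difference was 0.18 for Short against EV (standard error, SE, 0.070, limma adjusted p = 0.181) and 0.17 for Long against EV (SE 0.070, limma adjusted p = 0.175), so neither passed the threshold of 0.05. The exact permutation test gave p = 0.1 for each isoform, its smallest value. Groups without overlap on the higher side were found for 10.9% of all genes tested in Short and for 10.5% in Long, and 2 of the 9 members, WWP2 and SRSF9, were among them in either comparison. Rescaling the libraries to an equal sum of FPKM brought the WWP2 differences to 0.099 and 0.098. With HECW1 under the filter on low values, 8 of the 9 NEDD4-type ligases on the list were tested. None passed in Short, and in Long 1 passed: NEDD4, which also ubiquitinates membrane proteins, fell from 21.2 ± 4.49 to 12.8 ± 5.66 FPKM (log2 difference -0.75, SE 0.13, limma adjusted p = 0.0102). Over all genes tested 8.32% passed in Long (6.33% of all genes were called lower), and 0.0362% passed in Short. The median difference of the list was -0.068 in Long, beside 0.039 for all genes tested.

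KPNA1 and KPNA3 encode importin alpha adaptors, which hold the nuclear localization signal of a cargo and carry it through the pore together with importin beta. KPNA1 (ENSG00000114030, chromosome 3, 122140749 to 122233792, minus strand) was at 54.9, 55.6 and 66.9 FPKM with the empty vector, 67.3, 54.0 and 62.4 with the Short plasmid and 63.1, 57.3 and 66.2 with the Long plasmid. KPNA3 (ENSG00000102753, chromosome 13, 50273456 to 50366818, minus strand) was at 16.1, 15.2 and 21.1 FPKM with the empty vector, 16.3, 13.6 and 19.9 with the Short plasmid and 15.3, 13.1 and 20.8 with the Long plasmid. The groups overlapped for either gene. KPNA1 differed from EV by 0.049 in Short (95% interval -0.11 to 0.21) and by 0.075 in Long (-0.084 to 0.23), and KPNA3 by -0.071 (-0.22 to 0.079) and -0.094 (-0.24 to 0.055), with adjusted p-values of 0.423 to 0.721 from limma. KPNA1 was the more abundant adaptor in every library, by a factor of 3.14 to 4.36. The sign of the KPNA1 difference in Short turned with the rescaling to equal sums (-0.035), and that of KPNA3 turned in both comparisons after the correction for GC content that is described further on (0.044 in Short and 0.098 in Long).

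Of the 9 importins on the list, 8 were tested, and KPNA7 was below the filter. In Short none passed. In Long 2 of the 8 passed and both were lower, beside 6.33% of all genes tested that were called lower there: KPNA5, another importin alpha, went from 11.5 ± 1.76 to 6.72 ± 3.21 FPKM (log2 difference -0.76, limma adjusted p = 0.0130) and TNPO1, the transportin known to import ADAR1, from 76.2 ± 16.1 to 55.3 ± 27.7 FPKM (-0.54, limma adjusted p = 0.0158). KPNB1, the importin beta that works with the adaptors, was at 206 ± 12.2 FPKM in EV and 223 ± 7.35 FPKM in Long, and KPNA2, the most abundant alpha adaptor of the list, at 214 ± 16.1 and 219 ± 13.5 FPKM, without a call.

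SRSF9, DDX15 and AIMP2 are known to lower editing. SRSF9, a splicing factor of the SR family (ENSG00000111786, chromosome 12, 120899475 to 120933749, minus strand), was at 178, 164 and 170 FPKM with the empty vector, 203, 184 and 181 with the Short plasmid and 189, 194 and 186 with the Long plasmid. As for WWP2, all 6 plasmid libraries were above the 3 EV libraries. The differences were 0.15 in Short (SE 0.049, limma adjusted p = 0.134) and 0.15 in Long (SE 0.049, limma adjusted p = 0.0874), which within passages came to 10.8% ± 4.2 and 11.3% ± 6.24 (SD, n = 3). They did not pass the threshold, and with equal sums of FPKM they were 0.063 and 0.076. DYNLL1 and GATC overlap SRSF9 on the opposite strand, and whether strand was used in counting is not given in the sources used here.

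AIMP2, a scaffold of the multi-tRNA synthetase complex known to reduce ADAR protein, lies on the plus strand of chromosome 7 (6048886 to 6063465, ENSG00000106305), where EIF2AK1 overlaps it on the opposite strand. It measured 31.9, 33.4 and 39.9 FPKM with the empty vector, 39.0, 40.6 and 43.0 with the Short plasmid and 35.3, 40.0 and 45.2 with the Long plasmid. The ranges overlapped because EV replicate 3 reached the lower plasmid libraries, but within each passage both plasmids were above EV. The within-passage difference was 0.22 in Short (SE 0.060, limma adjusted p = 0.110) and 0.19 in Long (SE 0.060, limma adjusted p = 0.0818), and the exact sign-flip permutation test of the 3 pairs gave p = 0.25 for each. With equal sums of FPKM the differences were 0.14 and 0.12. None of the 11 genes of the multi-tRNA synthetase complex passed in Short or Long with adjustment over all genes. AIMP2 had the highest difference of the list in either comparison, while its fellow scaffold AIMP1 stood at 29.7 ± 7.21 FPKM in EV and 25.5 ± 7.38 FPKM in Long.

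DDX15, the DEAH-box helicase that takes the spliceosome apart after splicing (ENSG00000109606, chromosome 4, 24519064 to 24586177, minus strand), was at 84.7, 92.7 and 116 FPKM with the empty vector, 91.6, 75 and 110.5 with the Short plasmid and 79.8, 74.0 and 116 with the Long plasmid. Replicate 3 was the highest library of each group, and the groups overlapped throughout. The difference from EV was -0.087 in Short (95% interval -0.26 to 0.082) and -0.13 in Long (-0.30 to 0.036), with adjusted p-values of 0.529 and 0.312 from limma. Its sign turned after the correction for GC content, to 0.10 and 0.19. The list of other editing regulators, which also holds these 3 genes, had 11 tested members, of which 10 were above EV in either comparison, DDX15 being the exception. The share of all genes above EV was 61.0% in Short and 60.7% in Long. None of the list passed in Short.

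FMR1 was the only member that passed the threshold in any comparison. It encodes the fragile X protein FMRP, an RNA-binding regulator of translation that binds ADAR enzymes and modulates their editing, and it lies on the plus strand of chromosome X (146993437 to 147032645, ENSG00000102081). Its level was 41.6, 38.7 and 44.3 FPKM with the empty vector, 38.7, 31.7 and 42.3 with the Short plasmid and 36.0, 30.3 and 39.8 with the Long plasmid. Ordered by group within a passage, EV was the highest and Long the lowest in all 3 passages, although the ranges of the groups overlap. FMR1 fell in Long by 13.5%, 21.7% and 10.3% in replicates 1, 2 and 3 (log2 difference -0.23, SE 0.060, limma adjusted p = 0.0405). The difference in Short was -0.15 (SE 0.060, limma adjusted p = 0.185). The call in Long was lost in 8 of 13 alternative fits, over which the adjusted p ranged from 0.0116 to 0.859. Without the replicate block it was 0.655, without replicate 1, 2 or 3 it was 0.139, 0.372 and 0.0933, and after the GC correction the difference shrank to -0.019 (limma adjusted p = 0.859).

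Of the FMRP family and its partners, 7 genes were tested and 3 were lower in Long with an adjusted p under 0.05, as were 6.33% of all genes tested. The median difference of the list in Long was 0.013, beside 0.039 for all genes. Besides FMR1 these were its paralogue FXR1, which went from 67.1 ± 7.71 to 52.7 ± 15.5 FPKM (log2 difference -0.38, limma adjusted p = 0.0360), and NUFIP2, an FMRP-binding protein, which went from 30.1 ± 2.46 to 22.4 ± 5.17 FPKM (-0.43, limma adjusted p = 0.0123). The third paralogue, FXR2, was at 35.4 ± 2.36 FPKM in EV and 37.7 ± 1.39 FPKM in Long (limma adjusted p = 0.428). In Short none of the list passed.

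DHX9, also known as RNA helicase A, unwinds double-stranded RNA and binds ADAR2 as well as its substrates. The gene (ENSG00000135829) lies on the plus strand of chromosome 1 from 182808482 to 182857117. It was at 100, 110 and 147 FPKM with the empty vector, 124, 89.5 and 137 with the Short plasmid and 118, 112 and 143 with the Long plasmid. Short was above EV in replicate 1 and below it in replicates 2 and 3, so that the mean difference of -0.028 averages differences of 23.5%, -18.3% and -6.56% within passages 1, 2 and 3. The difference in Long was 0.078 (95% interval -0.12 to 0.28), with adjusted p-values of 0.881 in Short and 0.652 in Long from limma. Among 14 tested DEAH and DExH helicases 3 passed in Long and none in Short, beside 8.32% and 0.0362% of all genes tested. DHX29, which helps ribosomes scan structured leaders, was lower (16.5 ± 4.45 to 11.6 ± 5.88 FPKM, log2 difference -0.54, limma adjusted p = 0.0123), as was DHX36, which resolves G-quadruplexes (27.3 ± 7.0 to 22.2 ± 8.82 FPKM, -0.32, limma adjusted p = 0.0302). DHX34, a factor of nonsense-mediated decay, was higher (11.2 ± 1.53 to 14.3 ± 2.22 FPKM, 0.33, limma adjusted p = 0.0159). The DHX34 call was lost without the block, with no filter on low values, after the GC correction (limma adjusted p = 0.0519) and without replicate 1, 2 or 3 (limma adjusted p = 0.128, 0.165 and 0.0912).

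SND1, or Tudor-SN, is a nuclease-like protein that binds RNA rich in inosine and promotes its cleavage. It lies on the plus strand of chromosome 7 (127292248 to 127732661, ENSG00000197157), and LRRC4 overlaps it on the opposite strand. Its level was 109, 92.2 and 80.8 FPKM with the empty vector, 102, 91.7 and 83.9 with the Short plasmid and 111, 100 and 93.1 with the Long plasmid. It was highest in replicate 1 and lowest in replicate 3 of each group. Long was above EV and above Short in every passage, while Short and EV differed by -0.013. The difference was 0.12 for Long against EV (SE 0.050, limma adjusted p = 0.185) and 0.13 for Long against Short (SE 0.050, limma adjusted p = 0.604). With equal sums of FPKM the difference of Long from EV was 0.041, and after the GC correction it was 0.033. Among 7 tested genes of inosine RNA fate, ENDOV, the endonuclease that cuts next to inosine, was at 12.3 ± 1.29 FPKM in EV and 12.3 ± 0.979 FPKM in Long. MATR3 and SFPQ, proteins of the complex that retains inosine-rich RNA in the nucleus, passed in Long in opposite directions, MATR3 from 196 ± 54.9 to 144 ± 70.4 FPKM (log2 difference -0.51, limma adjusted p = 0.0107) and SFPQ from 261 ± 25.7 to 300.2 ± 24.3 FPKM (0.20, limma adjusted p = 0.0255). Of the 7 genes 1 was thus called lower and 1 higher, beside 6.33% and 1.99% of all genes tested. The SFPQ call was lost in 10 of 13 alternative fits (adjusted p from 0.0187 to 0.650), among them those with equal sums of FPKM (difference 0.13, limma adjusted p = 0.170) and with median ratio scaling (0.16, limma adjusted p = 0.0846), and that of MATR3 was lost in 5 but kept in these scalings. NONO, their partner, was at 393 ± 6.03 and 424 ± 23.3 FPKM without a call.

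Counted over the 9 genes, 0 passed for Short against EV, where 0.0362% of all genes tested passed, and 1 passed for Long against EV, where 8.32% did. At an unadjusted p under 0.05 there were 4 members in Short (WWP2, SRSF9, AIMP2 and FMR1) and 5 in Long (these and SND1), beside 22.0% and 24.4% of all genes. WWP2, SRSF9 and AIMP2 were above EV in the 3 passages with either plasmid, a pattern shown by 32.0% of all genes in Short and 27.4% in Long, and SND1 joined them in Long. FMR1 was below EV in the 3 passages in Short and, together with KPNA3, in Long, as were 13.4% and 18.1% of all genes. Short and Long were each set against the same EV libraries. The median difference of the members was -0.013 in Short and 0.078 in Long, and that of all genes 0.041 and 0.039.

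The comparison of Long with Short asks whether the *Alu* exon changes the response of these genes. The level of ADARB1 differed between them too, being lower in Long by 10.3%, 16.8% and 24.0% in replicates 1, 2 and 3, so the exon and the transgene level cannot be told apart here. No member passed, and of all genes tested 0.00725% did. The intervals bound what could have been missed: for WWP2 the difference was -0.0092 (95% interval -0.16 to 0.15), for SRSF9 0.0045 (-0.10 to 0.11), for AIMP2 -0.029 (-0.16 to 0.11) and for DHX9 0.11 (-0.097 to 0.31). SND1 alone had an unadjusted p under 0.05, as did 7.54% of all genes. It was higher in Long by 8.17%, 9.25% and 11.0% in replicates 1, 2 and 3, and 10.2% of all genes were higher in each passage. FMR1 was lower in Long in the 3 passages, by -0.083 on the log2 scale (limma adjusted p = 0.842), in common with 18.5% of all genes.

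Replicate number, taken as the passage, held a larger share of the variation than the plasmid group for most members. In a description of the sum of squares of log2(FPKM + 1) over the 9 libraries, passage took 93.7% for KPNA3, 83.4% for DDX15, 79.7% for SND1, 73.8% for DHX9, 61.9% for FMR1, 59.3% for KPNA1 and 51.6% for AIMP2. For WWP2 and SRSF9 the order was reversed, since the plasmid group took 82.6% and 64.3% and passage 7.16% and 18.2%. Over all genes tested the median share was 49.8% for passage and 19.9% for group, and 70.3% of genes had the larger share for passage. KPNA3, DDX15, AIMP2, FMR1 and DHX9 were highest in replicate 3 of each group, as were 19.5% of all genes. KPNA3 and DDX15 ran most closely together of the 36 pairs of members (Pearson r = 0.97 over the 9 libraries, which share groups and passages).

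Outside the members, the gene with the most similar profile to each was taken by Pearson correlation of log2(FPKM + 1) over the 9 libraries. RIMOC1 was closest to DDX15 (r = 0.99), RRP36 to AIMP2 (0.99), ETF1 to DHX9 (0.99), TXLNG to KPNA3 (0.99) and ARL14EP to FMR1 (0.99). INIP was closest to KPNA1 (0.98), LONRF2 to SND1 (0.98), CNDP2 to SRSF9 (0.97) and PPP5C to WWP2 (0.96). PPP5C, a protein phosphatase gene, was at 107.5, 101.3 and 103.4 FPKM in EV and between 115.5 and 120.9 FPKM in the 6 plasmid libraries. These did not overlap with EV, as for WWP2, but PPP5C was chosen for its likeness to WWP2 over the same libraries. Of all genes tested, 10.9% in Short and 10.5% in Long were without overlap on the higher side.

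The differences from EV moved with the GC content of the transcripts, here that of the longest annotated transcript. With the genes in 4 bins of equal size by GC content, in the lowest bin (29.2% to 41.7%) the median difference was -0.099 in Short and -0.15 in Long, and in the highest bin (55.8% to 75.6%) it was 0.13 and 0.091. DDX15 has 35.2% GC, FMR1 38.2%, KPNA3 38.6% and KPNA1 39.9%, which places these 4 in the lowest bin. SRSF9 has 42.1%, DHX9 43.4%, AIMP2 51.2%, SND1 54.5% and WWP2 57.4%. With each library corrected for GC content and the block kept, WWP2 stood at 0.070 in Short and 0.087 in Long, and AIMP2 at 0.15 and 0.12. KPNA1 rose to 0.14 and 0.21 (limma adjusted p = 0.425 and 0.111). SRSF9 stood at 0.19 and 0.20 (limma adjusted p = 0.331 and 0.0667), and FMR1 at -0.024 and -0.019. Across the pathway lists, members included, 64 genes were tested, and 9 were lower in Long with an adjusted p under 0.05. All 9 that were lower lie in the lowest GC bin, which holds 25 of the 64. None of the 9 passed after the GC correction, which called 1 gene of the lists, ZFR, and none passed without replicate 1, without replicate 2, without the block or with no filter on low values.

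Transcripts of the mitochondrial genome, counted as a sign of library composition, also moved with the groups. The 13 protein genes summed to 48872, 44636 and 46590 FPKM with the empty vector, 56327, 53661 and 48157 with the Short plasmid and 57737, 54532 and 52143 with the Long plasmid. Each Long library was above each EV library. Of the 13 genes 9 passed in Long, all higher, and none in Short. Over all genes tested 8.32% passed in Long (1.99% were called higher) and 0.0362% in Short. In Long the count was 5 after the GC correction, 2 without the eBayes trend, 0 without the replicate block or with no filter on low values, and 0, 1 and 10 without replicate 1, 2 and 3. In Short it was 6 without replicate 3. The part of GC content and of library composition in the differences of the members was not tested.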

How the data were processed

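The authors deposited FPKM per gene and library from stranded poly(A) libraries. Their processing notes name TopHat (version 1.4.1), Cufflinks and hg19, and how strand entered the FPKM is not given in the sources used here. No counts are given, so depth is known only from the steps of the lowest values, which put the libraries at 0.986 to 1.21 times EV replicate 1, and no counting intervals were computed. A few abundant transcripts lower all other FPKM. Gene names, GC content and length came from GENCODE for GRCh37, with a match for 47578 identifiers (87.2%), among them 97.1% of those tested, and promoter windows from RefSeq.

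limma (version 3.58.1) in R (version 4.3.3) was fitted to log2(FPKM + 1) across all 13801 genes averaging 1 FPKM or more, over the 9 libraries with eBayes trend, the replicate number as a block and Benjamini-Hochberg adjustment (threshold 0.05). The methods state that transfections were repeated in different passages, and that equal numbers share a passage is inferred. The 9 same-numbered pairs of libraries from different groups had deviations from the group means correlated at 0.327 to 0.813. The 18 differently numbered pairs were at -0.634 to 0.366, so that the ranges overlap. Replicate 2 of Long and Short correlated with EV replicate 2 at 0.354 and 0.327, and with EV replicate 1 at 0.362 and 0.366. The fit was also run on simulated data, and no result of that run is given or used here. The 9 members, by name, the gene most alike to each and the genes of the pathway lists with a call or the highest level were named. The members and lists were chosen with earlier results of these data known. The alternatives were a pseudocount of 0.1, 2 scalings, no block, fewer groups, no trend, other filters, each replicate left out and a loess GC correction (span 0.3). A length correction was added after seeing the data. CYFIP1, NEFL and PECAM1 were not analysed here. Some genes of the lists are not reported here.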

Additional observations from a re-analysis of the deposited data

How the results depend on the processing

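FMR1 in Long kept its direction in all 13 alternative fits and its call in 5. No other member passed in any of them. The number of genes passing for Short against EV, 5, was 2 without the replicate block, 3 without the eBayes trend, 16 with no filter on low values, 3 with a minimum mean of 5 FPKM and 3 after the GC correction, and 2 to 59 with a replicate left out. For Long against EV it was 1148, of which 76.0% were lower (95.5% lower with equal sums, 89.1% with median ratio scaling and 57.3% after the GC correction). It was 2 without the replicate block, 752 with only the groups compared, 646 without the trend, 12 with no filter and 164 after the GC correction, and 2 to 1031 with a replicate left out, the 2 being without replicate 1. For Long against Short it was 1, and 0 without the replicate block (147 at an unadjusted p under 0.05), 3 with only the groups compared, 0 without the trend and 12 with no filter, and 0 to 9 with a replicate left out.

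Of 351 differences of members under alternatives 28 changed sign, none of them called. For Short against EV these were KPNA1 (-0.035 with equal sums, -0.0024 with median ratio scaling), KPNA3 (0.044) and DDX15 (0.10) after the GC correction, and with a replicate left out KPNA1 (-0.071 to 0.12), DDX15 (-0.19 to 0.020), DHX9 (-0.19 to 0.10) and SND1 (-0.047 to 0.023). For Long against EV they were KPNA3 (0.098) and DDX15 (0.19) after the GC correction and DHX9 (-0.0022 to 0.14) with a replicate left out. For Long against Short, WWP2 was 0.0021 with median ratio scaling, 0.017 with the GC and 0.015 with the length correction, KPNA3 0.054 and 0.0014 with these corrections, and DDX15 0.089 and FMR1 0.0050 with the GC correction. With a replicate left out WWP2 ranged from -0.037 to 0.011, KPNA1 from -0.0036 to 0.085, KPNA3 from -0.067 to 0.0098, SRSF9 from -0.032 to 0.058, DDX15 from -0.11 to 0.028, AIMP2 from -0.079 to 0.026 and DHX9 from -0.0037 to 0.19. The cause of these shifts was not tested. With 3 passages, differences of the size seen for WWP2 and SRSF9 did not pass after adjustment over all genes.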
